A study of Mus musculus with 24 samples.

Results

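The report is about how the loss of N-RAS changed the response of the mouse liver to carbon tetrachloride (CCl4), a hepatotoxin that hepatocytes convert to a radical. The measure was an interaction. For every gene, the change between CCl4 and corn oil livers in wildtype mice was taken from the same change in NRAS-/- mice, on the log2 scale. It used 12 of the 24 arrays of the series, 3 each of NRAS-/- CCl4, NRAS-/- corn oil, wildtype CCl4 and wildtype corn oil livers. All 12 mice were labelled male and 8 to 10 weeks old, were assigned to the groups at random, and received 2 injections per week of CCl4 or of its vehicle, corn oil, for 4 weeks. The knockout is present in every cell of the animal, so that the liver cell type behind a difference is not given by the design. The other 12 arrays are livers after bile duct ligation (BDL) or sham operation in the same genotypes and serve here only as a comparison. Total liver RNA was read on arrays with 1 value per probe set, and 21144 genes were tested. With 3 arrays per group, precision is limited, and the p values measure the spread between these arrays.

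N-RAS is a small GTPase of the RAS family. It passes signals from growth factor and cytokine receptors to the RAF, MEK and ERK kinases and to phosphoinositide 3-kinase, and ERK in turn drives immediate early genes and phosphatases that switch the cascade off. In the injured liver, Kupffer cells, the resident macrophages, release cytokines and chemokines through NF-kappaB and AP-1. Hepatocytes lower the genes of their metabolic work, such as bile acid synthesis, drug metabolism and amino acid breakdown.

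Nras itself read 5.27 to 5.55 in NRAS-/- CCl4 livers, 4.91 to 5.34 in NRAS-/- corn oil livers, 7.49 to 8.04 in wildtype CCl4 livers and 5.92 to 6.91 in wildtype corn oil livers (log2 signal), so that no array went against its genotype label. The 12 arrays had medians of 5.57 to 5.68, and pairs of arrays correlated at 0.945 to 0.99. The hepatocyte markers of a fixed list averaged 12.50 to 13.05 on each array. The NRAS-/- corn oil array N28 stood apart from its label as a male. Its 4 Y-linked genes averaged 3.0, against 6.84 to 7.99 on the other 11 arrays, and 16 of 19 female-biased liver genes read highest on it. The counts of calls over all genes and over each gene list are therefore given without N28 as well where they differ, and the promoter shares were counted with all 12 arrays.

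The interaction passed the test (limma, Benjamini-Hochberg adjusted p under 0.05) for 499 genes, 2.36% of those tested. It was positive for 279 genes (1.32%), meaning a higher response in NRAS-/- than in wildtype livers, and negative for 220 (1.04%). A short gene list without a called gene lies close to these shares. At an unadjusted p under 0.05 the counts were 1888 and 1694. At any p, 9837 of the 21144 interactions were positive and 11083 negative after rounding to 2 digits. The absolute size of the called interactions had a median of 1.22 log2 units and ran from 0.75 to 3.44. Without N28, 536 genes were called, 320 higher (1.51%) and 216 lower (1.02%), and 401 of the 499 kept their call and sign. In each of the 12 fits that left out 1 array, 200 genes kept their call, 101 positive and 99 negative. Leaving out wildtype CCl4 array N25 gave the lowest number of called genes, 263, followed by wildtype corn oil N22 (274), NRAS-/- corn oil N29 (293), wildtype corn oil N23 (302) and NRAS-/- corn oil N27 (329).

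The called genes fell into classes by whether each genotype's own response passed the same test, as it did for 22.8% of all genes in NRAS-/- and 15.2% in wildtype livers. The response was amplified in NRAS-/- livers, passing in both genotypes in the same direction and larger in NRAS-/-, for 107 genes. Of these, 94 were falls that went further in NRAS-/- livers and 13 were rises. It was blunted, passing in both genotypes but smaller in NRAS-/-, for 23 genes, 20 of them rises. It was reversed for 29 genes, of which 26 rose in NRAS-/- livers and fell in wildtype livers and 3 did the opposite. For 234 genes the response passed in NRAS-/- livers alone, and for 105 in wildtype livers alone. For the remaining gene, Mplkip, named after its values were seen, it passed in neither genotype, and its interaction of 1.0 (adjusted p = 0.0453) lost its call in 11 of the 12 fits without 1 array, N23 being the exception (adjusted p up to 0.104). Without N28 the counts were 96 amplified, 23 blunted, 37 reversed, 252 in NRAS-/- alone and 125 in wildtype alone.

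**Figure D1:**
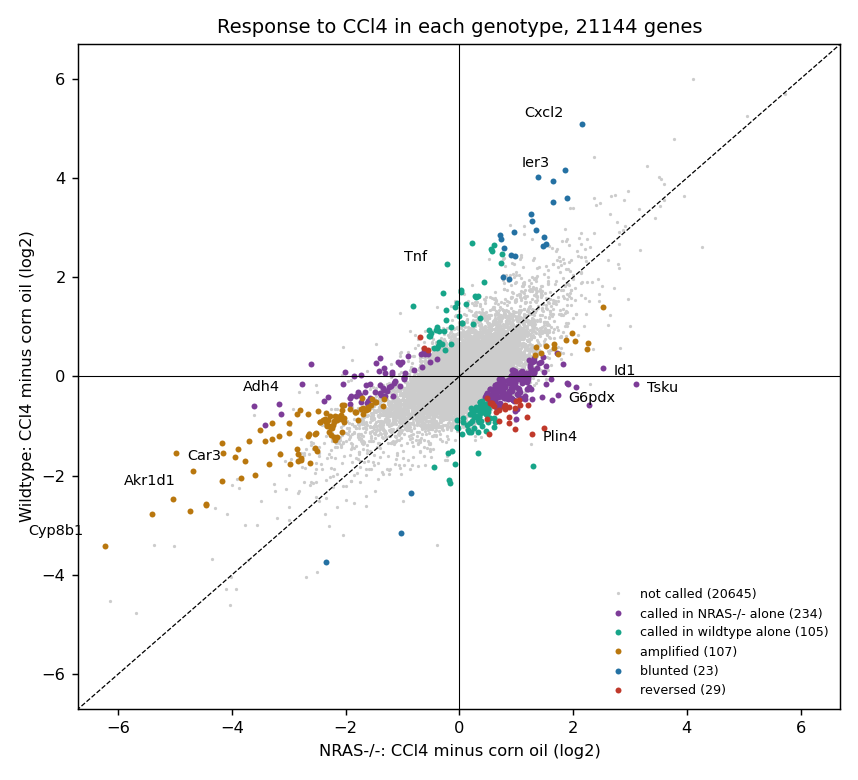
Change between CCl4 and corn oil livers (log2) in NRAS-/- mice (x axis) and in wildtype mice (y axis), 1 point per gene, 3 arrays per group, coloured by class for the genes whose interaction passed the test, with Mplkip not drawn. The dashed line marks equal responses: the 94 amplified falls, Car3 and Akr1d1 among them, lie at the lower left above that line, and the blunted rises, Cxcl2 and Ier3 among them, at the top.

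Among cytokine and chemokine genes, those that passed the test had smaller rises in NRAS-/- livers or rose in wildtype livers alone. Of 32 genes on the list, 8 had a negative interaction that passed the test (25%, against 1.04% of all genes), 0 had a positive one, and 30 of 32 values were negative. The median interaction of the list was -0.60, against -0.03 over all genes. Its median response to CCl4 was 0.04 in NRAS-/- livers and 0.68 in wildtype livers. Without N28, 7 of the 32 were called lower.

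Cxcl2 encodes a chemokine that attracts neutrophils. It read 7.93, 7.0 and 6.21 in NRAS-/- CCl4 livers, against 5.11, 4.43 and 5.10 in NRAS-/- corn oil livers, and 9.14, 9.83 and 9.72 in wildtype CCl4 livers, against 3.98, 4.81 and 4.61 in wildtype corn oil livers. The CCl4 livers lay above the corn oil livers in each genotype, and every NRAS-/- CCl4 liver lay below every wildtype CCl4 liver. The rise was 4.48-fold in NRAS-/- and 34.1-fold in wildtype livers, an interaction of -2.92 ± 0.50 (log2 ± SE, n = 3 per group, adjusted p = 0.00951). Ccl3, which attracts macrophages and other leukocytes, read 6.59, 6.36 and 5.46 in NRAS-/- CCl4 livers, against 4.73, 4.00 and 4.75 in NRAS-/- corn oil livers, and 8.19, 8.59 and 8.38 in wildtype CCl4 livers, against 4.37, 4.56 and 4.46 in wildtype corn oil livers. Its interaction was -2.29 ± 0.37 (adjusted p = 0.0061), again with no overlap between the CCl4 livers of the genotypes.

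Tnf, the gene of tumour necrosis factor, rose in wildtype livers alone. It read 3.10, 3.46 and 3.43 in NRAS-/- CCl4 livers, against 3.39, 3.66 and 3.56 in NRAS-/- corn oil livers, and 4.97, 5.93 and 5.59 in wildtype CCl4 livers, against 3.40, 2.86 and 3.45 in wildtype corn oil livers. The NRAS-/- CCl4 livers overlapped the corn oil livers of both genotypes, and the interaction was -2.47 ± 0.32 (adjusted p = 0.00177). These are low signals. The wildtype corn oil signals of Cxcl2 also lay under 32 on the linear scale, so that its fold rise rests on values near the low end. With every linear signal under 32 raised to 32, the Tnf interaction was -0.51 (adjusted p = 0.492), and of the 8 cytokine genes Ccl3 alone was still called (-2.26, adjusted p = 0.026), while Cxcl2 was at -2.58 (adjusted p = 0.0587). The interactions of Ccl5, Cxcl10 and Ccl2 kept their size under the floor, at adjusted p values of 0.0615, 0.0794 and 0.0549, and why their calls were lost was not tested.

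The other called cytokine genes encode leukocyte attractants. Ccl5 had an interaction of -1.96 ± 0.35 (adjusted p = 0.0115). Cxcl10, Ccl2, Ccl4 and Ccl22 were named after their values were seen, with interactions of -1.86, -1.44, -1.03 and -1.55. The calls of Ccl4 and Ccl22 were lost in 9 of the 12 fits that left out 1 array, at adjusted p values up to 0.0951 (without N21, N22, N23, N25, N26, N27, N29, N30 or N31) and up to 0.112 (without N21, N22, N23, N25, N26, N28, N29, N30 or N32). Macrophage markers were read beside these genes. The Kupffer cell markers averaged 8.04 to 8.44 in NRAS-/- CCl4 livers, 8.17 to 8.54 in NRAS-/- corn oil livers, 8.08 to 8.42 in wildtype CCl4 livers and 7.62 to 7.98 in wildtype corn oil livers. Of these 11 markers 10 had a negative interaction and 1 was called lower (9.09%, against 1.04% of all genes). It was Timd4, at -0.91 (adjusted p = 0.0491), a call lost in 10 of the 12 fits, without any 1 array other than N28 and N31 (adjusted p up to 0.102). The markers of infiltrating macrophages and monocytes averaged 7.40 to 7.99 in NRAS-/- CCl4 livers and 7.28 to 8.16 in wildtype CCl4 livers. Of these 14, 0 were called by limma and 4 passed at an unadjusted p under 0.05, against 2.36% and 16.9% of all genes. Without N28, 1 was called higher and 1 lower, against 1.51% and 1.02% of all genes. Of the 13 neutrophil markers, 0 were called and 1 passed at an unadjusted p under 0.05, against the same 2.36% and 16.9%. Lists this short cannot show an absence of change. In bulk tissue, fewer cells of a type and less RNA per cell cannot be told apart, and the part of cell numbers in these differences was not tested.

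Ier3, an early response gene that NF-kappaB and ERK switch on, behaved like the chemokines. It read 7.44, 7.21 and 6.61 in NRAS-/- CCl4 livers, against 5.61, 4.87 and 5.23 in NRAS-/- corn oil livers, and 9.30, 9.49 and 9.66 in wildtype CCl4 livers, against 5.51, 5.38 and 5.10 in wildtype corn oil livers. The rise was 3.61-fold in NRAS-/- and 17.8-fold in wildtype livers, an interaction of -2.30 ± 0.32 (adjusted p = 0.00265) that held in all 12 fits with 1 array left out and with the floor of 32. It was the 1 called gene of 20 NF-kappaB feedback and target genes (5%, against 1.04% of all genes called lower). Of the 20, 18 had a negative interaction, at a list median of -0.53. Tifa, an adaptor that activates NF-kappaB, reached -2.24 ± 0.41 (adjusted p = 0.0131). It read 7.04 to 7.73 in NRAS-/- CCl4 livers, 7.65 to 8.76 in NRAS-/- corn oil livers, 7.64 to 8.52 in wildtype CCl4 livers and 6.34 to 7.01 in wildtype corn oil livers, so that the wildtype corn oil livers were the lowest group.

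Some other genes rose in wildtype livers alone. Olr1, a scavenger receptor for oxidised lipoproteins, read 3.67 to 4.49 in NRAS-/- CCl4 livers, 3.54 to 4.52 in NRAS-/- corn oil livers, 6.33 to 6.96 in wildtype CCl4 livers and 3.67 to 4.34 in wildtype corn oil livers (interaction -2.45 ± 0.40, adjusted p = 0.00677). Acod1, which makes itaconate in macrophages, had an interaction of -2.05 ± 0.35 (adjusted p = 0.00966), with a response of 0.61 in NRAS-/- and 2.65 in wildtype livers. Both calls also held with the floor of 32 but were lost in a plain two-way model (adjusted p = 0.0728 for Olr1 and 0.0752 for Acod1). Pwwp3b, a gene of a PWWP-domain protein on the X chromosome, was blunted by -2.13 ± 0.26 (adjusted p = 0.00127).

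Genes of the RAS cascade itself were called at about the share of all genes. Of 35 genes of the Ras and MAP kinase cascade, 1 was called (2.86%, against 2.36% of all genes), and the list's median was 0.02. It was Map3k5, the stress kinase ASK1, at -1.29 ± 0.26 (adjusted p = 0.0188). Hras, another RAS gene, had an interaction of 0.63 ± 0.27 (adjusted p = 0.249), and Nras itself one of -1.01 ± 0.32 (adjusted p = 0.116). Of 16 feedback inhibitors of ERK, 2 were called lower (12.5%, against 1.04% of all genes). Dusp5, a nuclear phosphatase of ERK, rose by 1.90 in NRAS-/- and 3.60 in wildtype livers (interaction -1.70 ± 0.37, adjusted p = 0.0258). Its call was lost without N21, N23, N25, N26, N27 or N29 (adjusted p up to 0.0661). Dusp8, a phosphatase of the stress-activated kinases, was at -1.54 ± 0.33 (adjusted p = 0.026), a call kept only without N22, N28 or N30 (adjusted p up to 0.0695 otherwise). None of 25 AP-1 and immediate early genes was called by limma, against 2.36% of all genes, although 21 had a negative interaction (median -0.66). At an unadjusted p under 0.05, 8 of the 25 passed, against 16.9% of all genes.

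**Figure D2:**
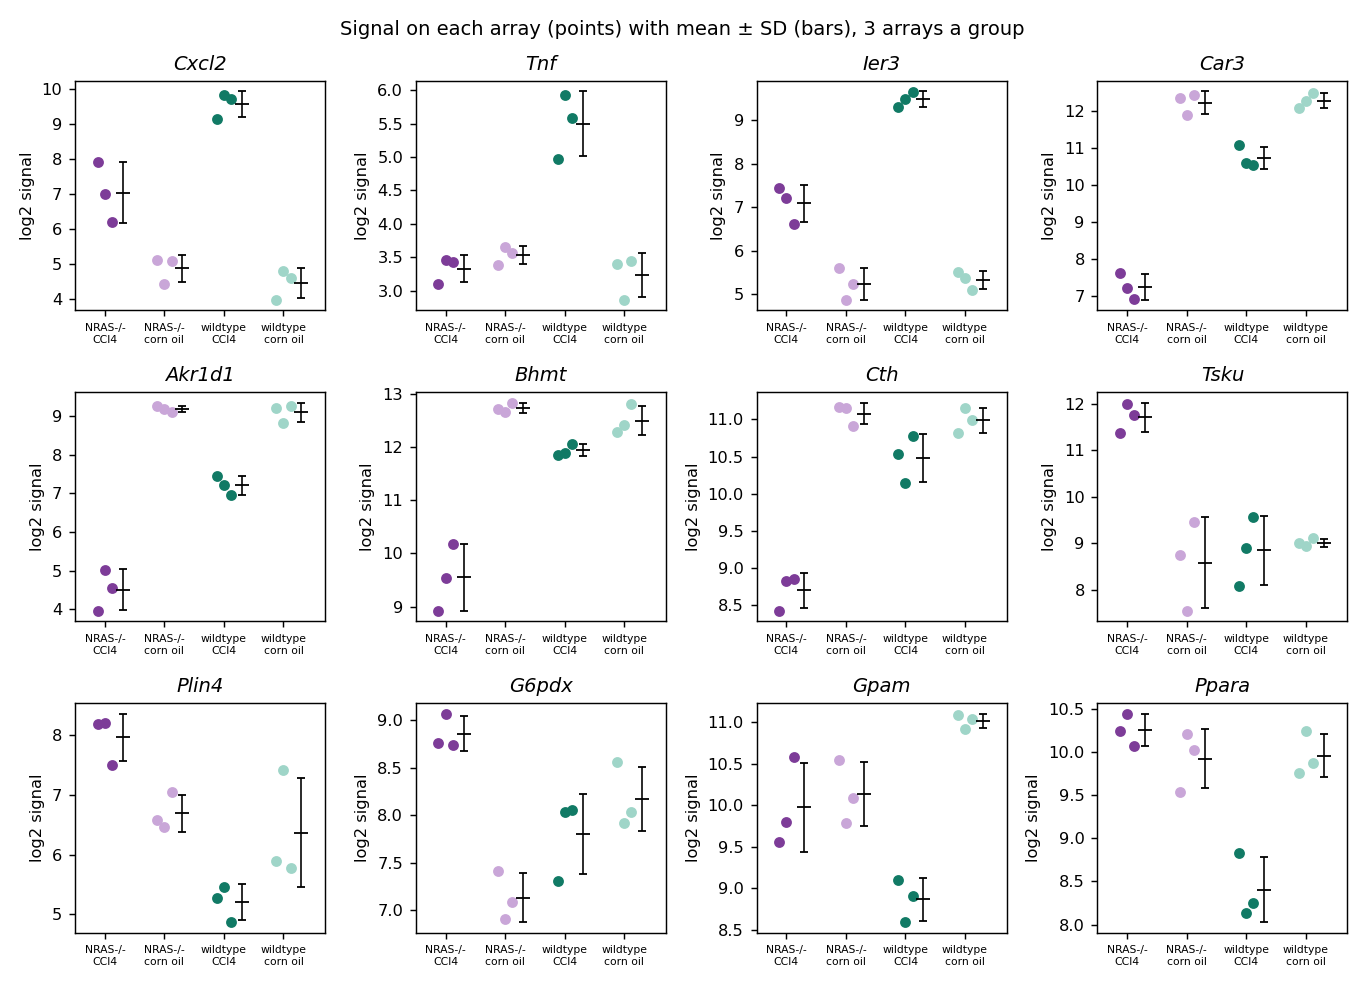
Log2 signal on each array for 12 genes named in the text, in NRAS-/- CCl4, NRAS-/- corn oil, wildtype CCl4 and wildtype corn oil livers. Points are arrays and bars the mean ± SD of 3. Cxcl2, Tnf and Ier3 are highest in the wildtype CCl4 livers, Car3, Akr1d1, Bhmt and Cth lowest in the NRAS-/- CCl4 livers, and Tsku highest in the NRAS-/- CCl4 livers.

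Promoters of blunted genes were searched for the sites of the injury response. The 250 bases before the RefSeq start (GRCm38.p6, the first listed start of a gene, both strands) were available for 16214 of the tested genes. The NF-kappaB consensus occurred in 1243 of them (7.67%). Among the genes whose rise was blunted or passed in wildtype livers alone, 8 of 48 promoters held it (16.7%), and 9 of 48 held the AP-1 site TGANTCA (18.8%, against 6.30% of all promoters). Among genes that fell further in NRAS-/- livers or in NRAS-/- livers alone, the NF-kappaB consensus occurred in 5 of 112 promoters (4.46%) and the AP-1 site in 5 (4.46%). Reversed genes held the NF-kappaB consensus in 4 of 26 promoters (15.4%) and the AP-1 site in 2 (7.69%). Over all called genes with a promoter, the shares were 6.84% and 7.37%. The groupings were made after the values were seen, and a match is a run of letters, not a bound site. The promoters of 3 blunted genes that held the NF-kappaB consensus are shown with the matches in capitals, since the rises of these genes differed between genotypes and Ier3 and Cxcl2 are described above by array. The Cxcl2 promoter, chr5:90903649-90903898 on the plus strand, held 2 overlapping matches, the first beginning 97 bases before the start. The Cxcl10 promoter, chr5:92348890-92349139 on the minus strand, held 3 matches, beginning 159, 104 and 103 bases before the start. The Ier3 promoter, chr17:35821463-35821712 on the plus strand, held 1 match, beginning 92 bases before the start.
Cxcl2: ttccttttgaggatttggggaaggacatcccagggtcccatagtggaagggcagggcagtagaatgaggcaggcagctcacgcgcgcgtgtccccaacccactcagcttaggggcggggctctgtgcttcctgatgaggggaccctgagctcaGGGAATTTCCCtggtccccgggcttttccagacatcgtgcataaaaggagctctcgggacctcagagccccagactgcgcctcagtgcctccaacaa
Cxcl10: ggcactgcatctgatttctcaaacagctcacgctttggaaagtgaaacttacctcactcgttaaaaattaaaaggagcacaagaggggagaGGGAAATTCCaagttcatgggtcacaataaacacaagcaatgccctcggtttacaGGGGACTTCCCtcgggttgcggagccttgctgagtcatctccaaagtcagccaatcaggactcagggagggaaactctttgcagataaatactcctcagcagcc
Ier3: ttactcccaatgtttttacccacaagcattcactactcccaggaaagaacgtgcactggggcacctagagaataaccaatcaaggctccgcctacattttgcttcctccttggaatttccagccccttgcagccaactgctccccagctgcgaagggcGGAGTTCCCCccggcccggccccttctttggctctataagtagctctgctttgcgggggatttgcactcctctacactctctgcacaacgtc

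Acute phase genes, which the liver secretes in inflammation, leaned the same way, and for the called members the genotypes differed in the corn oil livers. All 30 measured members of the list had a negative interaction (median -0.55), and 2 were called lower (6.67%, against 1.04% of all genes). Orm2, the gene of an orosomucoid, read 10.66, 11.03 and 11.06 in NRAS-/- CCl4 livers, against 10.07, 10.51 and 10.42 in NRAS-/- corn oil livers, and 11.19, 11.14 and 10.60 in wildtype CCl4 livers, against 8.32, 8.03 and 9.03 in wildtype corn oil livers. The CCl4 livers overlapped between genotypes, whereas all NRAS-/- corn oil livers lay above all wildtype corn oil livers, and the interaction was -1.93 ± 0.34 (adjusted p = 0.0106). Lcn2, the iron-binding lipocalin 2, showed the same arrangement, with a genotype difference of 0.08 in CCl4 and 2.71 in corn oil livers (interaction -2.63 ± 0.57, adjusted p = 0.0271). The Lcn2 call did not hold in 7 of the 12 fits, those without N21, N22, N24, N25, N30, N31 and N32, where its adjusted p reached 0.0688.

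Several metabolic genes of hepatocytes fell further in NRAS-/- livers. Car3, carbonic anhydrase 3, had the most negative interaction of all called genes. It read 7.61, 7.21 and 6.91 in NRAS-/- CCl4 livers, against 12.36, 11.88 and 12.44 in NRAS-/- corn oil livers, and 11.08, 10.60 and 10.53 in wildtype CCl4 livers, against 12.09, 12.27 and 12.48 in wildtype corn oil livers. The corn oil livers overlapped between genotypes, and the NRAS-/- CCl4 livers lay below all others. The fall was 31.7-fold in NRAS-/- and 2.91-fold in wildtype livers, an interaction of -3.44 ± 0.30 (adjusted p = 0.000212), and it ran from -3.62 to -3.27 when 1 array at a time was left out. Adh4, an alcohol dehydrogenase, fell 12.2-fold in NRAS-/- livers, whereas in wildtype livers its change of -0.59 did not pass (interaction -3.03 ± 0.44, adjusted p = 0.00368). Upp2, a uridine phosphorylase, and Sult2a8, a sulfotransferase, reached -2.62 ± 0.39 (adjusted p = 0.00406) and -2.60 ± 0.29 (adjusted p = 0.00084).

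In bile acid synthesis, 3 of 16 genes were called lower (18.8%, against 1.04% of all genes) and 0 higher. Akr1d1, the reductase of the sterol ring, read 3.95, 5.01 and 4.54 in NRAS-/- CCl4 livers, against 9.27, 9.20 and 9.11 in NRAS-/- corn oil livers, and 7.45, 7.21 and 6.96 in wildtype CCl4 livers, against 9.22, 8.82 and 9.28 in wildtype corn oil livers. Its fall was 25.9-fold in NRAS-/- and 3.74-fold in wildtype livers, and since its NRAS-/- CCl4 signals lay near or under 32 the interaction was -2.29 (adjusted p = 0.00382) with the floor of 32, against -2.79 without it. Cyp8b1, the sterol 12-alpha hydroxylase needed for cholic acid, read 4.55, 3.81 and 4.53 in NRAS-/- CCl4 livers, against 10.54, 10.39 and 10.70 in NRAS-/- corn oil livers, and 7.27, 5.91 and 6.97 in wildtype CCl4 livers, against 10.24, 9.89 and 10.29 in wildtype corn oil livers. Its fall was 75.8-fold in NRAS-/- and 10.7-fold in wildtype livers, and the interaction was -2.12 (adjusted p = 0.0574) with the floor of 32, under which the NRAS-/- CCl4 signals lay. For each gene the corn oil livers were close to each other, and the CCl4 livers separated by genotype. Akr1c6, a hydroxysteroid dehydrogenase, was at -2.10 ± 0.23 (adjusted p = 0.00084). Cyp7a1, the rate-limiting enzyme, did not pass: its change was -6.14 in NRAS-/- and -4.52 in wildtype livers, an interaction of -1.62 ± 0.41 (adjusted p = 0.0508).

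Carriers of bile acids split by direction of the response. The uptake carrier Slco1b2 fell by 2.99 in NRAS-/- and 0.94 in wildtype livers (interaction -2.04 ± 0.22, adjusted p = 0.00084). Abcc4, an export pump of the blood-facing membrane, was a blunted rise instead. It read 6.78, 6.75 and 6.18 in NRAS-/- CCl4 livers, against 5.62, 6.38 and 5.48 in NRAS-/- corn oil livers, and 8.56, 8.74 and 8.71 in wildtype CCl4 livers, against 5.77, 6.13 and 5.83 in wildtype corn oil livers, an interaction of -2.02 ± 0.32 (adjusted p = 0.00547). With Slco1a1 (-2.56) and Slc10a1 (-0.99), 4 of 17 genes of bile acid transport and sensing were called lower (23.5%, against 1.04% of all genes) and 0 higher. Without N28, 3 were called lower. With all arrays, 16 of the 17 interactions were negative. The Slco1a1 call was kept only without N28 or N31 and the Slc10a1 call only without N25, N27 or N31 (adjusted p up to 0.0868 and 0.0923 otherwise).

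Genes of the urea cycle and of amino acid breakdown had the highest share of calls of any list with 30 or more members, 9 lower and 0 higher of 31 (29%, against 1.04% of all genes lower), at a median of -0.75. The median response of the list was -1.32 in NRAS-/- and -0.50 in wildtype livers. Bhmt, which remethylates homocysteine with betaine, read 8.92, 9.54 and 10.18 in NRAS-/- CCl4 livers, against 12.71, 12.65 and 12.83 in NRAS-/- corn oil livers, and 11.85, 11.89 and 12.06 in wildtype CCl4 livers, against 12.27, 12.41 and 12.80 in wildtype corn oil livers. The NRAS-/- CCl4 livers stood alone at the low end, with an interaction of -2.62 ± 0.34 (adjusted p = 0.00192). Cth, which makes cysteine from cystathionine, and Asl, the argininosuccinate lyase of the urea cycle, were both at -1.88 (± 0.26, adjusted p = 0.00265, and ± 0.22, adjusted p = 0.00116). Kynu, a hydrolase of tryptophan breakdown, was at -2.13 ± 0.31 (adjusted p = 0.00368). The remaining called members were named after their values were seen. Otc, the urea cycle's ornithine transcarbamylase, and Hgd, of tyrosine breakdown, were at -1.39 and -1.13 and held in all 12 fits with 1 array left out. Kmo (-1.28), Haao (-0.98) and Fah (-0.75), of tryptophan and tyrosine breakdown, lost their calls in 4, 11 and 12 of those fits, Kmo without N21, N22, N29 or N30, Haao without any array but N32, and Fah without any array (adjusted p up to 0.0961). Without N28, 7 members were called lower.

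A list of cytochromes P450 chosen from families 1 to 4 had a median interaction of -1.0 over 32 genes. Of the 32, 6 were called lower (18.8%, against 1.04% of all genes), against 3 without N28, and 0 higher. The list's median response was -1.67 in NRAS-/- and -0.59 in wildtype livers. These medians were taken with N28, and the list holds sex-biased genes on which N28 stood apart. Cyp2b9 read 12.32 on N28, against 5.54 on N27 and 5.90 on N29. Cyp4a12a read 4.24 on N28, against 12.15 and 12.33. The part of N28 in the medians was not tested. Of the 6 called genes, Cyp2c37 was the call that held in all 12 fits with 1 array left out. It read 6.34, 5.98 and 5.92 in NRAS-/- CCl4 livers, against 10.30, 11.46 and 10.69 in NRAS-/- corn oil livers, and 7.22, 7.53 and 7.95 in wildtype CCl4 livers, against 10.47, 9.77 and 10.60 in wildtype corn oil livers (interaction -2.02 ± 0.40, adjusted p = 0.0178). Cyp2c50 and Cyp2c54, close relatives of it whose probe sets may share sequence, were at -1.88 and -1.86 and were called only with all arrays or without N24 (adjusted p up to 0.0985 and 0.101 otherwise). Cyp2c54 and Cyp4f14 were named after their values were seen. Cyp1a2 (-1.37), Cyp2g1 (-1.24) and Cyp4f14 (-1.21) lost their calls without N21, N22, N24, N26, N27, N29 or N32 (Cyp1a2), without any array but N27 or N32 (Cyp2g1) and without any array but N30 (Cyp4f14), at adjusted p values up to 0.0977. Cyp2e1, the enzyme that activates CCl4, fell by 1.26 in NRAS-/- and 0.79 in wildtype livers and did not pass (interaction -0.47 ± 0.26, adjusted p = 0.377). Of the sex-biased genes, 0 of 19 female-biased genes and 1 of 17 male-biased genes (Slco1a1, lower) were called, against 2.36% of all genes. Without N28, 2 female-biased genes were called higher and 2 male-biased genes lower, against 1.51% and 1.02% of all genes. With all arrays the median interaction was -1.11 for the female-biased and 0.14 for the male-biased list, against -0.03 over all genes.

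**Figure D3:**
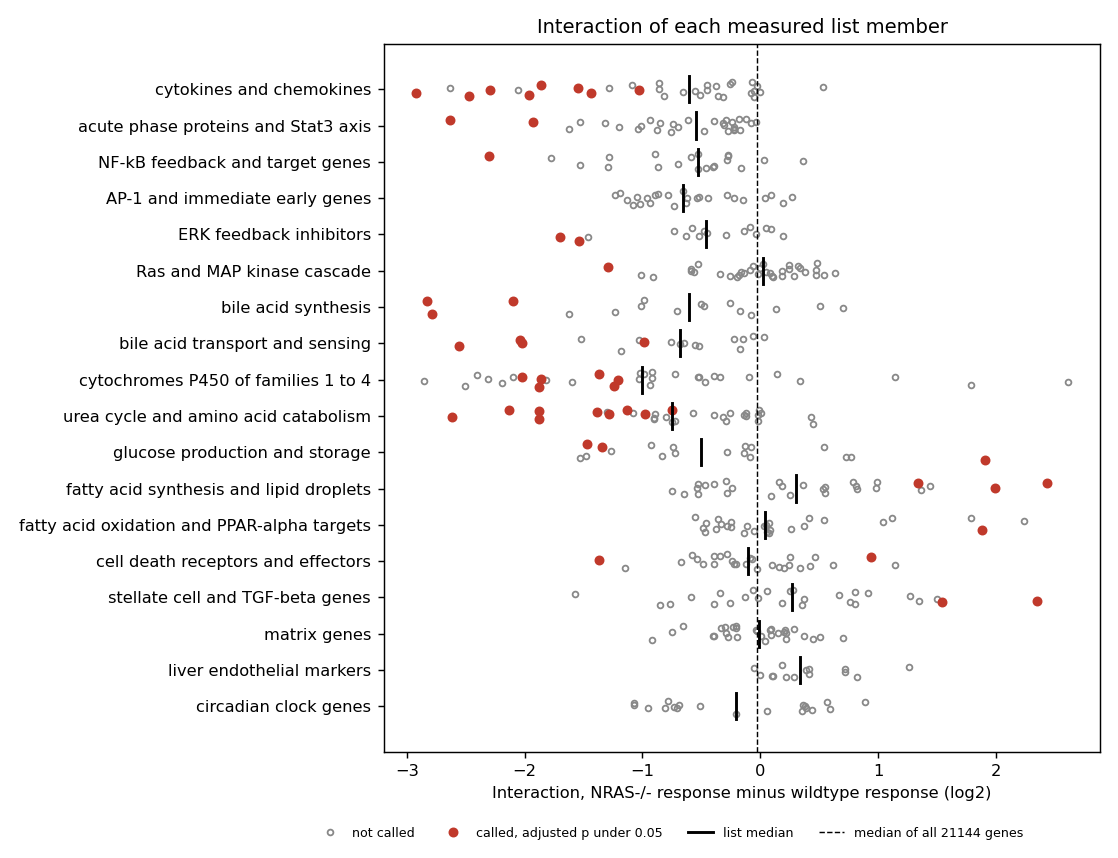
Interaction (log2, x axis) of every measured member of 18 gene lists, 1 point per gene, with called genes filled, the median of each list as a vertical bar and the median of all genes, -0.03, as a dashed line. The called members lie left of 0 in the cytokine, bile acid, cytochrome P450 and amino acid lists and right of 0 in the list of fatty acid synthesis.

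Some genes of lipid synthesis and storage had positive interactions. Of 28 genes of fatty acid synthesis and lipid droplets, 3 were called higher (10.7%, against 1.32% of all genes) and 0 lower, with the same counts without N28, while 10 of the 28 values were negative. Gpam, which starts triglyceride synthesis, read 9.55, 9.79 and 10.58 in NRAS-/- CCl4 livers, against 10.54, 9.78 and 10.08 in NRAS-/- corn oil livers, and 9.10, 8.59 and 8.91 in wildtype CCl4 livers, against 11.09, 10.92 and 11.03 in wildtype corn oil livers. Treated and control livers overlapped in NRAS-/- mice and were apart in wildtype mice, an interaction of 1.99 ± 0.35 (adjusted p = 0.0107). Me1, malic enzyme, which supplies NADPH for lipid synthesis, was at 1.34 ± 0.26 (adjusted p = 0.016).

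Ppara, the nuclear receptor of fatty acid oxidation, read 10.24, 10.44 and 10.07 in NRAS-/- CCl4 livers, against 9.54, 10.20 and 10.02 in NRAS-/- corn oil livers, and 8.83, 8.13 and 8.25 in wildtype CCl4 livers, against 9.76, 10.24 and 9.87 in wildtype corn oil livers. The wildtype CCl4 livers lay below the other groups (interaction 1.88 ± 0.30, adjusted p = 0.00657). It was the 1 called gene of 28 on the list of fatty acid oxidation and PPAR-alpha targets (3.57%, against 1.32% of all genes called higher). The list's median was 0.04, and 2 of its genes were called higher without N28. Slc2a2, the glucose carrier of hepatocytes, and Gys2, glycogen synthase, were lower instead, at -1.34 ± 0.21 (adjusted p = 0.00594) and -1.47 ± 0.24 (adjusted p = 0.00798).

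Reversed responses were small in each genotype, with a median of 0.79 in NRAS-/- and -0.61 in wildtype livers, and all 29 stayed called without N28. Plin4, a coat protein of lipid droplets, read 8.18, 8.19 and 7.50 in NRAS-/- CCl4 livers, against 6.57, 6.46 and 7.04 in NRAS-/- corn oil livers, and 5.28, 5.46 and 4.87 in wildtype CCl4 livers, against 5.90, 7.41 and 5.78 in wildtype corn oil livers. It rose 2.41-fold in NRAS-/- livers and fell 2.24-fold in wildtype livers, an interaction of 2.43 ± 0.49 (adjusted p = 0.0188), and wildtype corn oil array N22 stood above the other 2 of its group. In the fit of all 24 arrays the Plin4 call was lost (adjusted p = 0.0506). Mpp4, a membrane scaffold protein, read 6.18, 6.28 and 5.51 in NRAS-/- CCl4 livers, against 4.71, 4.18 and 4.60 in NRAS-/- corn oil livers, and 4.47, 4.52 and 3.96 in wildtype CCl4 livers, against 5.33, 5.52 and 5.21 in wildtype corn oil livers (interaction 2.53 ± 0.31, adjusted p = 0.00127). Its treated and control livers did not overlap in either genotype. Dna2, a nuclease and helicase of DNA replication, Dand5, an antagonist of Nodal, Zfp322a, a zinc finger gene, and Noxred1, an oxidoreductase gene, had interactions of 2.0, 2.04, 1.78 and 1.81 (adjusted p values of 0.0126, 0.00192, 0.00151 and 0.00625). With the floor of 32, Mpp4 was at 1.35 (adjusted p = 0.0455), Noxred1 at 0.84 (adjusted p = 0.188), Plin4 at 2.39 (adjusted p = 0.102) and Dna2 at 2.0 (adjusted p = 0.0676).

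The class with a response in NRAS-/- livers alone held 172 positive interactions and 62 negative ones. Tsku, a secreted proteoglycan made by hepatocytes, had the most positive interaction of all called genes, 3.27 ± 0.56 (adjusted p = 0.00966). It read 11.37, 11.99 and 11.76 in NRAS-/- CCl4 livers, against 8.76, 7.55 and 9.46 in NRAS-/- corn oil livers, and 8.09, 8.91 and 9.57 in wildtype CCl4 livers, against 9.0, 8.94 and 9.11 in wildtype corn oil livers. Only the NRAS-/- CCl4 livers stood apart, after an 8.66-fold rise. G6pdx, the enzyme that opens the pentose phosphate pathway, read 8.76, 9.07 and 8.74 in NRAS-/- CCl4 livers, against 7.41, 6.90 and 7.08 in NRAS-/- corn oil livers, and 7.31, 8.03 and 8.05 in wildtype CCl4 livers, against 8.56, 7.92 and 8.03 in wildtype corn oil livers. The NRAS-/- CCl4 livers lay above all others (interaction 2.10 ± 0.32, adjusted p = 0.00406). Fkbp14, a folding enzyme of the endoplasmic reticulum, and Bud13, a splicing factor, were at 2.10 ± 0.23 (adjusted p = 0.00084) and 2.26 ± 0.28 (adjusted p = 0.00137). Angptl8, which restrains lipoprotein lipase, was at 1.58 ± 0.30 (adjusted p = 0.0146), with a genotype difference of 0.33 in CCl4 and -1.25 in corn oil livers.

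Among genes of fibrosis, 2 of 26 stellate cell and TGF-beta genes were called higher (7.69%, against 1.32% of all genes) and 0 lower. Without N28, 3 were called higher. Smad7, which blocks TGF-beta receptors, read 6.32, 5.94 and 6.17 in NRAS-/- CCl4 livers, against 5.27, 5.09 and 4.62 in NRAS-/- corn oil livers, and 5.31, 5.01 and 4.77 in wildtype CCl4 livers, against 5.50, 5.40 and 5.35 in wildtype corn oil livers (interaction 1.54 ± 0.26, adjusted p = 0.00966). Id1, a target of bone morphogenetic proteins, was at 2.35 ± 0.56 (adjusted p = 0.0424), a call that was lost without N22, N23, N24, N25, N27, N29, N30 or N31 (adjusted p up to 0.0985). None of 30 matrix genes and none of 23 metalloproteinases and inhibitors was called by limma, against 2.36% of all genes. At an unadjusted p under 0.05, 3 and 1 of them passed, against 16.9% of all genes. Without N28, 0 matrix genes and 1 gene of the metalloproteinase list, higher, were called. Col1a1 and Col3a1, of the fibrillar collagens, were at 0.22 ± 0.23 (adjusted p = 0.674) and 0.29 ± 0.40 (adjusted p = 0.769). Acta2, the stellate cell's smooth muscle actin, was at 1.5 ± 0.53 (adjusted p = 0.152), with 7.62, 8.78 and 7.42 in NRAS-/- CCl4 livers, against 5.91, 5.78 and 6.23 in NRAS-/- corn oil livers, and 5.99, 6.76 and 7.28 in wildtype CCl4 livers, against 5.52, 6.52 and 6.61 in wildtype corn oil livers.

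Of 28 death receptors and effectors 2 were called (7.14%, against 2.36% of all genes). Fadd, an adaptor of death receptors, was called higher (0.94 ± 0.21, adjusted p = 0.0322) and Fas, the death receptor, lower (-1.37 ± 0.33, adjusted p = 0.0435). The Fadd call was lost without any 1 array but N24, N25 or N28, and the Fas call without N21, N22, N24, N25, N27, N29, N30 or N32, and their adjusted p values reached 0.082 and 0.101. Ripk3 and Mlkl, of necroptosis, were at 0.24 ± 0.41 (adjusted p = 0.819) and -0.12 ± 0.21 (adjusted p = 0.829). None of 30 genes of DNA replication and mitosis was called by limma, against 2.36% of all genes. Without N28, 1 was called higher. At an unadjusted p under 0.05, 2 passed with all arrays, against 16.9% of all genes, and Pcna was at 0.36 ± 0.22 (adjusted p = 0.439).

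An interaction can arise in the treated or in the vehicle livers. The genotype difference was larger in CCl4 than in corn oil livers for 447 of the 499 genes (89.6%) and larger in corn oil livers for 52. Taken alone, the genotype difference passed the test in CCl4 livers for 454 of the called genes and in corn oil livers for 37, against 3020 (14.3%) and 179 (0.847%) of all genes. In 358 of the 499 the genotype difference had opposite signs in the 2 treatments. The selection of these genes for a large difference between the 2 favours opposite signs, so the count is no result about them. The genes whose larger gap lay in corn oil livers included Lcn2, Orm2 and Angptl8. Others named here were Tifa (1.45 in corn oil and -0.79 in CCl4 livers), Fkbp14 (-1.33 and 0.77) and Me1 (-0.88 and 0.46). Map3k5 (0.81 and -0.48), Cyp2g1 (0.92 and -0.32) and Timd4 (0.52 and -0.39) were also among them.

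**Figure D4:**
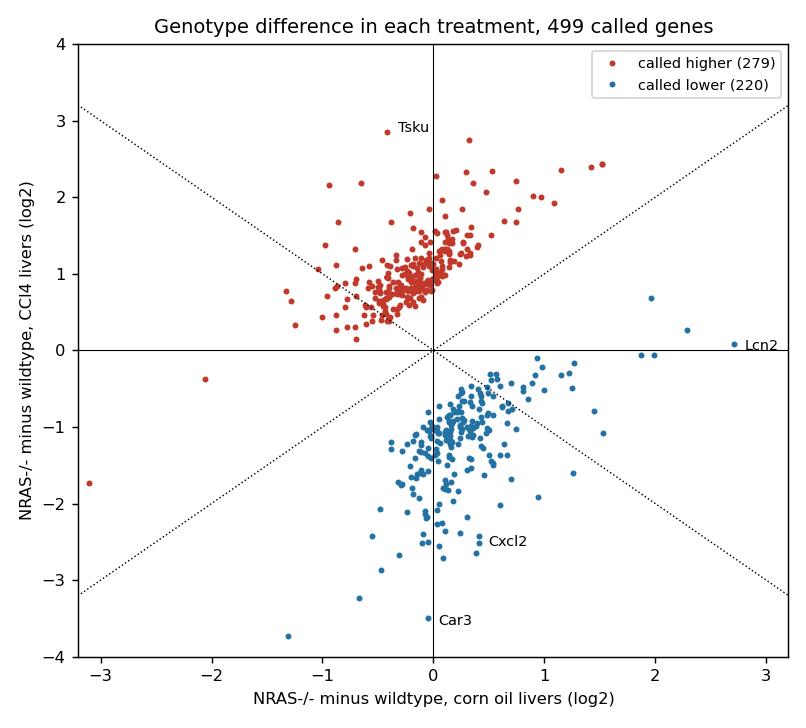
Genotype difference, NRAS-/- minus wildtype (log2), in corn oil livers (x axis) and in CCl4 livers (y axis) for the 499 called genes, 1 point per gene, with genes called higher and lower in different colours. Dotted diagonals mark equal sizes: 447 genes lie above or below both diagonals, with the larger gap in CCl4 livers, and Lcn2 lies far to the right with almost no gap in CCl4 livers.

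The same contrast was formed for the BDL experiment. There limma called 0 genes (0%), also without NRAS-/- BDL array N12, and a plain two-way model also called 0, with 1414 genes (6.69%) at an unadjusted p under 0.05. The standard errors were alike, with medians of 0.25 for CCl4 and 0.24 for BDL. Of the 499 genes, 40 had a BDL interaction of the same sign and 11 one of the opposite sign at an unadjusted p under 0.05. At any p, the signs were the same for 63 of 107 amplified, 13 of 23 blunted and 18 of 29 reversed genes. They were also the same for 69 of 105 genes that passed in wildtype alone and 144 of 234 in NRAS-/- alone, but not for Mplkip. The share of all genes with the same sign in both experiments was not counted, at any p or at an unadjusted p under 0.05. These sign counts are therefore no result about agreement between the experiments. The difference of the interactions, fitted over all 24 arrays, passed for 63 genes (0.298%), of which 51 were among the 499, or 10.2% of the 499 and 81% of the 63. Without N28 it passed for 64.

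Tnf had interactions of -2.47 with CCl4 and 0.40 with BDL, a difference of -2.86 ± 0.54 (adjusted p = 0.026). Slco1b2 had -2.04 and 0.04 (difference -2.09 ± 0.33, adjusted p = 0.00981), Bhmt -2.62 and 0.14 (-2.77 ± 0.45, adjusted p = 0.0106), and Ppara 1.88 and -0.42, whose difference passed at an adjusted p of 0.034. For Cxcl2 the interactions were -2.92 with CCl4 and -0.78 with BDL, and their difference did not pass (adjusted p = 0.17). Car3 was at -3.44 and 0.18 (adjusted p = 0.0509). In the BDL experiment the vehicle of the contrast is a sham operation, and the labels give no batch for either experiment.

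**Figure D5:**
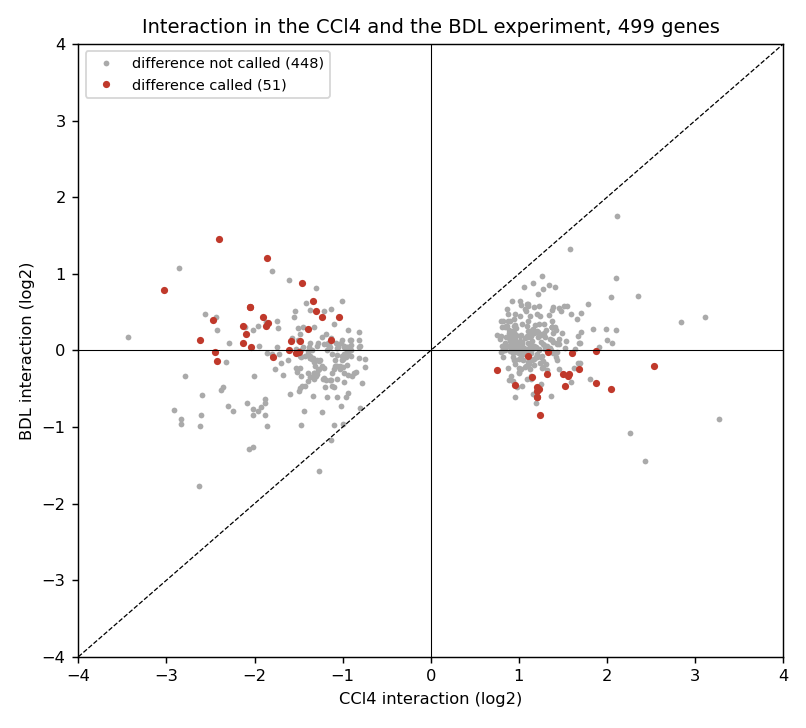
CCl4 interaction (log2, x axis) and BDL interaction (log2, y axis) of the 499 genes called for CCl4, 1 point per gene, with the 51 genes whose difference of interactions passed the test in colour. The dashed line marks equal interactions: most genes lie near 0 on the BDL axis. Of the 51, 46 have a BDL interaction of the opposite sign, which their selection for a large difference favours.

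The time of day of sampling is not in the labels, and the clock genes were read beside these results. An index of 10 clock genes (mean of z values, with Arntl, Npas2 and Clock counted negatively) was -0.54 to -0.42 in NRAS-/- CCl4 livers, -1.01, -0.56 and 1.31 in NRAS-/- corn oil livers, 0.30 to 0.76 in wildtype CCl4 livers and -0.19 to 0.30 in wildtype corn oil livers. The CCl4 livers of the genotypes did not overlap, and NRAS-/- corn oil array N29 stood apart at 1.31. None of 19 clock genes was called by limma, against 2.36% of all genes, and 1 was called lower without N28. At an unadjusted p under 0.05, 5 of the 19 passed, against 16.9% of all genes. With the index in the fit, 275 genes were called, 246 of them among the 499 with the same sign. The called cytokine genes were then 6, with Cxcl2 at -2.69 (adjusted p = 0.0277) and Tnf at -2.39 (adjusted p = 0.00642), and Car3, Akr1d1, Bhmt and Tsku kept their calls at -3.29, -2.84, -2.53 and 3.96. Of 14 markers of liver endothelial cells, 12 had a positive interaction, against 9837 of all 21144 genes. None was called by limma, against 2.36% of all genes, and 4 passed at an unadjusted p under 0.05, against 16.9%. Their average levels were 7.68 to 8.24 in NRAS-/- CCl4 livers, 7.55 to 7.90 in NRAS-/- corn oil livers, 7.24 to 7.91 in wildtype CCl4 livers and 7.58 to 7.86 in wildtype corn oil livers. The part of the clock and of these cells in the results was not tested beyond these values.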

How the data were processed

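Log2 values per probe set and array, normalized by the authors with a method that is not given in the sources used here, were deposited for 24 livers. MAS5 is listed among tools in the submitters' notes, without version or role. The labels describe a Cy3 kit beside a biotin label. A further deposited sheet holds linear signal as the authors' group means, used here only to check the scale, and the authors' own ratios and p-values, which were not used.

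Of 22206 probe sets, 21367 had 1 gene symbol, 836 several and 3 none, and those with several or none were left out. With the GRCm38.p6 annotation, 883 symbols were updated. For 143 genes with several probe sets the one of highest mean was kept, leaving 21144 genes, of which 130 share all values with another gene. The interaction was fitted by limma 3.58.1 (R 4.3.3, the data.table package, version 1.17.8) on the 12 arrays of the CCl4 experiment, with eBayes and Benjamini-Hochberg adjustment over all genes. The methods' two-way test was run as an alternative, beside other normalizations, filters, arrays and covariates. Classes compare the responses of each genotype in the same fit. The scripts were tested on simulated data. Tables and plots used python 3.11.15, pandas 2.3.3 and matplotlib 3.10.9. Promoter sequences are from RefSeq.

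Named genes were the 12 most positive and 12 most negative called interactions that held without N28, the 6 largest of each class under the same condition, up to 4 called members of each of 45 gene lists, and a set of fixed genes. Not all of them are described. The members and lists were chosen with earlier results of these data known. Nothing in the labels gives slides, scan dates or batches. Some results are not reported here.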

Additional observations from a re-analysis of the deposited data

Results flagged for a closer look

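An effect of CCl4 that differed between the genotypes, by the limma test of the difference itself, drew attention to 499 genes. The difference between the CCl4 and BDL interactions passed for 63 genes. The values below are the log2 interactions of the called genes that the text names, NRAS-/- response minus wildtype response.

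Interactions of the largest negative size were those of Car3 (-3.44), Adh4 (-3.03), Cxcl2 (-2.92), Cyp8b1 (-2.83), Akr1d1 (-2.79), Lcn2 (-2.63), Bhmt (-2.62), Upp2 (-2.62), Sult2a8 (-2.60) and Slco1a1 (-2.56). Further negative values were those of Tnf (-2.47), Olr1 (-2.45), Ier3 (-2.30), Ccl3 (-2.29), Tifa (-2.24), Pwwp3b (-2.13), Kynu (-2.13), Akr1c6 (-2.10), Acod1 (-2.05) and Slco1b2 (-2.04). Negative values of intermediate size belonged to Abcc4 (-2.02), Cyp2c37 (-2.02), Ccl5 (-1.96), Orm2 (-1.93), Cth (-1.88), Asl (-1.88), Cyp2c50 (-1.88), Cxcl10 (-1.86), Cyp2c54 (-1.86) and Dusp5 (-1.70). Smaller negative values belonged to Ccl22 (-1.55), Dusp8 (-1.54), Gys2 (-1.47), Ccl2 (-1.44), Otc (-1.39), Cyp1a2 (-1.37), Fas (-1.37), Slc2a2 (-1.34), Map3k5 (-1.29) and Kmo (-1.28). The smallest negative values belonged to Cyp2g1 (-1.24), Cyp4f14 (-1.21), Hgd (-1.13), Ccl4 (-1.03), Slc10a1 (-0.99), Haao (-0.98), Timd4 (-0.91) and Fah (-0.75).

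Positive values were led by Tsku (3.27), Mpp4 (2.53), Plin4 (2.43), Id1 (2.35), Bud13 (2.26), G6pdx (2.10), Fkbp14 (2.10), Dand5 (2.04), Dna2 (2.0) and Gpam (1.99). Smaller positive values were those of Ppara (1.88), Noxred1 (1.81), Zfp322a (1.78), Angptl8 (1.58), Smad7 (1.54), Me1 (1.34), Mplkip (1.0) and Fadd (0.94).

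Groups of 3 arrays are too small for a test of outlying arrays. The calls named in the report as lost without 1 array included limma adjusted p values, with all arrays, of 0.0258 for Dusp5, 0.0271 for Lcn2 and 0.0491 for Timd4.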

How the results depend on the processing

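No paired analysis was possible because the array numbers N21 to N32 are shared by no groups. No gene called here and under another setting changed sign. The fit of all 24 arrays lost the calls of Plin4, Dusp8, Cyp2g1 and Angptl8. Counts are given for called genes unless named otherwise, against 499 called, 279 higher, 220 lower, 29 reversed, 23 blunted, 107 amplified, 105 in wildtype alone, 234 in NRAS-/- alone and 447 with the larger gap in CCl4 livers. The fit of all 24 arrays gave 835, with 480 higher, 355 lower, 49 reversed, 181 wildtype alone, 404 NRAS-/- alone and 749 on the CCl4 side. Leaving out genes below the 40th percentile gave 753, with 451 higher, 54 reversed, 363 NRAS-/- alone and 674 on the CCl4 side. With the floor of 32, 301 were called, 115 lower, 7 blunted, 70 amplified, 51 wildtype alone, 150 NRAS-/- alone and 273 on the CCl4 side, and 1 cytokine gene. Trended and robust eBayes called 14 urea cycle and amino acid genes lower. The plain two-way model, adjusted, called 170, with 95 higher, 75 lower, 5 blunted, 49 amplified, 20 wildtype alone, 73 NRAS-/- alone, 157 on the CCl4 side and 1 cytokine gene. Among the genes whose adjusted calls it lost were Cxcl2, Ccl3, Adh4, Upp2, Tsku, Ppara and Smad7, while Car3, Akr1d1, Bhmt, Tnf and Ier3 kept theirs. Unadjusted the plain model called 3349, 1817 higher and 1532 lower. With the clock index, 275 were called, 132 higher, 143 lower, 18 reversed, 15 blunted, 64 amplified, 46 wildtype alone, 132 NRAS-/- alone and 246 on the CCl4 side. The causes were not tested.

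Leaving out 1 array at a time gave 263 to 536 called genes, 119 (without N25) to 320 higher, 129 (without N22) to 216 lower, 11 to 37 reversed, 13 to 27 blunted, 46 to 96 amplified, 42 to 125 in wildtype alone, 128 to 252 in NRAS-/- alone and 239 to 462 on the CCl4 side. Called lower were 6 to 8 cytokine genes and 6 to 8 urea cycle and amino acid genes. The 499 genes shared 431 calls with quantile normalization, 474 with median centring, 222 with the floor of 32, 246 with the clock index and 144 with the plain model. Of the named genes that held without each array, Tifa, Map3k5, Tsku, Orm2, Cyp2c37, Gpam, Me1, Dna2 and Angptl8 lost their calls with the floor of 32 at an unchanged interaction, and the cause was not tested.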

Other observations

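Genes whose symbols mark zinc finger proteins were counted after the values were seen. Of 443 such genes tested, 22 had a positive interaction that passed the test (4.97%, against 1.32% of all genes) and 2 a negative one, all counted with all 12 arrays. Zfp322a, described above, was one of the 22. The sequence TATAAA, counted on the same 250 bases, occurred in 5.07% of the promoters of genes called higher. It occurred in 16.6% of those of genes called lower and in 12.1% of those of all genes.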
